A study of Mus musculus with 8 samples.

Results

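Nuclear-encoded respiratory chain genes were read for PBRM1 and BRG1 occupancy at their promoters in uterine stromal cells. They were taken by symbol from the GENCODE annotation of mm10, as protein-coding genes on chromosomes 1 to 19 whose names begin with Nduf, Uqcr, Atp5 or Cox followed by a digit from 4 to 8, with *Sdha*, *Sdhb*, *Sdhc* and *Sdhd*. The rule used no measured value and gave 91 gene records of 20807. They carry 90 symbols, because *Atp5o* has a second record on chromosome 16 with its own transcription start site (TSS). The records comprised 36 of complex I, 8 complex I assembly factors (*Ndufaf1* to *Ndufaf8*), 4 of complex II, 8 of complex III, 17 of complex IV and 18 of complex V. The grouping follows the symbols, so that *Ndufa4* and *Ndufa4l2*, now counted with complex IV, stand here with complex I.

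The chromatin came from WT mice on D4, from primary stromal cells of the uterus that were plated for several hours after dispersal of pooled horns. The labels give an age of 8 to 12 weeks, 5 to 10 horns, mating with stud males and day 4 of pregnancy, whereas the extraction text calls the mice pseudopregnant. Chromatin immunocleavage sequencing (ChIC-Seq) was run on 50000 fixed cells with an antibody to PBRM1 (BAF180, a bromodomain subunit of the PBAF form of SWI/SNF) or to BRG1 (the ATPase, encoded by *Smarca4*), in 3 replicates each. No gene was deleted and no agent was given, so all libraries share the WT state, and the antibody is what differs. The 2 IgG libraries were not analysed here. Replicates are described by the study as biological, whereas the labels do not tie each to a separate culture or set of animals, and p-values measure the spread between these libraries.

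The respiratory chain of the inner mitochondrial membrane passes electrons from NADH through complex I, or from succinate through complex II, by way of complex III and cytochrome c to complex IV, and complex V uses the resulting proton gradient to make ATP. A few subunits are encoded in mitochondrial DNA, and all the others come from nuclear genes scattered over many chromosomes. Most of these are active in every cell type and have CpG-rich promoters, many with sites for NRF1, GABPA (an ETS factor) or YY1. Several complex IV subunits also have isoforms that are largely restricted to muscle, testis or hypoxic tissue.

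A promoter peak was a deposited peak with at least 1 bp within 2000 bp of any annotated TSS of the gene, and the peak with the highest fold enrichment stood for the promoter. Fold enrichment is the pileup of fragments at the summit over the local background of the same library, on a linear scale. The replicate lists held 21912 to 26363 PBRM1 peaks from 8868777 to 16505239 fragments, and 36656 to 40610 BRG1 peaks from 11506964 to 14595089 fragments. The lists pooled by antibody rested on 38144108 and 37842839 fragments. PBRM1 replicate 3 was the deepest library and had the fewest peaks. Of marker genes of cell types, 5 of 8 stromal genes had a promoter peak in all 6 replicate lists, against 53.5% of all genes. The counts were 1 of 8 epithelial, 1 of 4 endothelial, 1 of 4 smooth muscle and 0 of 4 immune genes. The stromal *Col1a1*, *Col1a2* and *Hoxa11* had PBRM1 peaks in 1, 2 and 0 replicates. In the pooled lists the stromal and epithelial genes did not stand apart. BRG1 had peaks at all 8 of each, with median fold enrichments of 5.07 and 5.07, and PBRM1 at 8 stromal and 7 epithelial genes, with medians of 3.52 and 4.52. The epithelial *Krt7*, the endothelial *Kdr* and the smooth muscle gene *Des* were those with a peak in each replicate list. A promoter peak is not a measure of expression, and the part of other cell types in the peaks below was not tested.

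The sequences below show the reference promoters that the results turn on, from 250 bases before to 50 from the reference TSS onward, read 5′ to 3′ on the gene's strand from GRCm38. Capitals mark exact matches to an NRF1 site (GCGCATGCG), an ETS site (CCGGAAGT), a YY1 site (AAGATGGCG) or the TATA-box string (TATAAA), on either strand. *Cox7a2* held the highest fold enrichment of complex IV and *Ndufaf5* that of the assembly factors. The other 4 are a common complex IV subunit and its muscle isoform, each pair one below the other.
*Cox7a2*, chr9:79759829-79760128, minus strand: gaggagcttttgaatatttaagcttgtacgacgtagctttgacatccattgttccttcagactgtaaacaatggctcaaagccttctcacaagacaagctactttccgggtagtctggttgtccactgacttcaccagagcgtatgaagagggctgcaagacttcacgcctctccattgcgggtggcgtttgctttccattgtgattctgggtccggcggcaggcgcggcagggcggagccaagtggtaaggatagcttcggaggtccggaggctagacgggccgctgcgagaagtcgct
*Ndufaf5*, chr2:140170399-140170698, plus strand: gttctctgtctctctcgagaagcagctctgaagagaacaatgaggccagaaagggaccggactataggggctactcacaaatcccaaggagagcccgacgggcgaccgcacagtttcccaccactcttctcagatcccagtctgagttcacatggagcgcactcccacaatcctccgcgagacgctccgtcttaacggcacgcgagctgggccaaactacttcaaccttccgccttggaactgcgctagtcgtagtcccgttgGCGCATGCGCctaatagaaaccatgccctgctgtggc
*Cox6a1*, chr5:115348932-115349231, minus strand: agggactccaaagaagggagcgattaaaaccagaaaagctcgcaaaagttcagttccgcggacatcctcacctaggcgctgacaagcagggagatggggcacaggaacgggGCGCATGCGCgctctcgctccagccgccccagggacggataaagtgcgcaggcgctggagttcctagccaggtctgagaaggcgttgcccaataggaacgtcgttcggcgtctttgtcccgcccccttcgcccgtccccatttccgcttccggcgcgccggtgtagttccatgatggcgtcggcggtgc
*Cox6a2*, chr7:128206338-128206637, minus strand: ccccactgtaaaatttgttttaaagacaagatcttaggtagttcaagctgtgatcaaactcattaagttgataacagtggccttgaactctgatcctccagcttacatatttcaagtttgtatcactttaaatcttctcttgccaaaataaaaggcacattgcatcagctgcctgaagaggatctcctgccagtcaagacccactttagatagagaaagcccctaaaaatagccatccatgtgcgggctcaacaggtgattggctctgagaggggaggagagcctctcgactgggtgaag
*Cox8a*, chr19:7217567-7217866, minus strand: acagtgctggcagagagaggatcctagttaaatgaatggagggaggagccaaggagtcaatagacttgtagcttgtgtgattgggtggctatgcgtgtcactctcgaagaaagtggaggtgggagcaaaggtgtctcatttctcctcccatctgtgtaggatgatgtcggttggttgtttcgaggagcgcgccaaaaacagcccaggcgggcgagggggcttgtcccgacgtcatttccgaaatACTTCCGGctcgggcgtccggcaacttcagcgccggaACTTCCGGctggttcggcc
*Cox8b*, chr7:140900397-140900696, minus strand: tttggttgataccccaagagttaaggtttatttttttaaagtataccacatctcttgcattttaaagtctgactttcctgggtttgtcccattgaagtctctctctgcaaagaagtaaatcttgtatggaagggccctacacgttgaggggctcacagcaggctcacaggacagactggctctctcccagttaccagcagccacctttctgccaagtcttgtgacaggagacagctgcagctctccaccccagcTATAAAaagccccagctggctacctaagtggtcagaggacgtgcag

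Nearly all respiratory chain promoters carried peaks of both antibodies. In the pooled PBRM1 list 87 of 91 had a promoter peak, against 70.2% of all protein-coding genes. The pooled BRG1 list also held 87, against 73.7%. The peaks of both antibodies occurred at 86 promoters, and at all 86 the peaks overlapped, compared with 92.6% of the 14415 genes with both. A single PBRM1 peak lay in the promoter window of 77 of the 87 genes and a single BRG1 peak in that of 75, that is 88.5% and 86.2%, compared with 65.6% and 58.1% of all genes with a promoter peak. The median number of annotated transcripts was 4 for the respiratory chain genes and 4 for all genes. The part of the number and spread of start sites in the single-peak shares was not tested.

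The replicates gave nearly the same picture. PBRM1 peaks were found at 84, 85 and 84 promoters in replicates 1, 2 and 3 (92.7% ± 0.634, SD, n = 3), against 60.3% ± 2.89 of all genes. BRG1 peaks were found at 86 promoters in each replicate. Peaks in all 6 replicate lists marked 81 of 91 promoters (89.0%), against 53.5% of all genes. With a minimum fold enrichment of 5 in every list the count fell to 64, or 70.3%, and that of all genes to 35.8%. With 1 reference TSS per gene it was 81, against 49.9% of all genes. No replicate list had a promoter peak at 5 of the genes, against 28.0% of all genes. For comparison, 77 of 92 cytosolic ribosomal protein genes (83.7%) and 75 of 78 mitochondrial ribosomal protein genes (96.2%) had peaks in all 6 lists, so that high support is not particular to the respiratory chain.

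**Figure D1:**
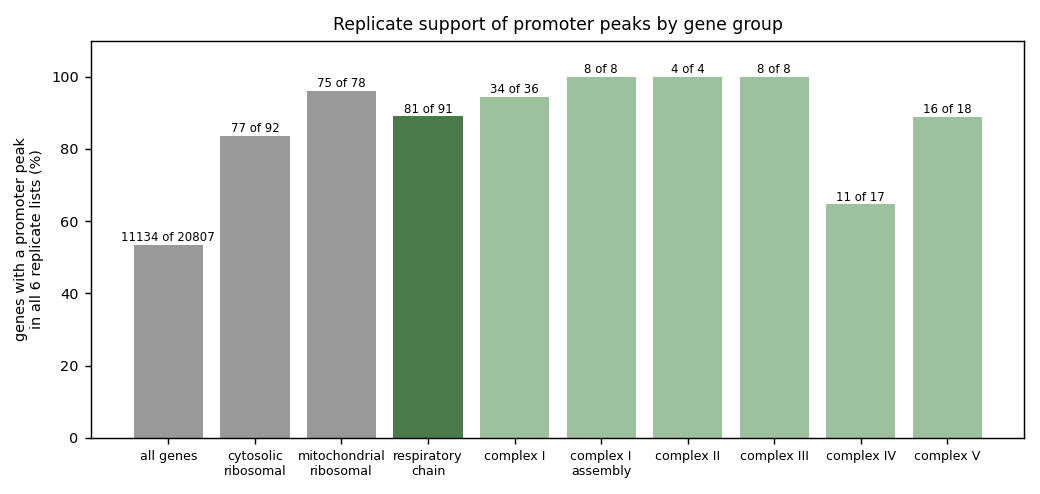
Percentage of genes with a promoter peak in all 6 replicate lists, for all protein-coding genes on chromosomes 1 to 19, for both ribosomal protein families and for the respiratory chain genes as a whole and by complex, with counts above the bars. Complex IV, with 11 of 17, was the lowest of the complexes, and 3 groups reached all of their genes.

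Support differed by complex mainly through complex IV. All 8 assembly factors, all 4 subunits of complex II and all 8 of complex III had peaks in the 6 lists, as did 34 of 36 genes of complex I and 16 of 18 of complex V. In complex IV the count was 11 of 17, and 4 of the 5 genes without a peak in any replicate belong to it. These were *Cox6a2*, *Cox7b2*, *Cox8b* and *Cox8c*, and the fifth was the second record of *Atp5o* (chr16:91684398-91926982), whose start lies within the main *Atp5o* gene.

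Fold enrichments at the respiratory chain promoters were moderately above those of other promoters. The median over the genes with a peak was 8.44, 8.09 and 6.10 in PBRM1 replicates 1, 2 and 3, against 7.57, 6.81 and 5.75 for all genes. In the BRG1 replicates it was 9.55, 9.74 and 9.72, against 8.11, 8.16 and 8.26. Each of the 6 lists gave the higher median to the respiratory chain. Among the 11134 genes with a peak in all 6 lists, the fold enrichments of a list were also ranked from 0 to 100. The median rank of the 81 respiratory chain promoters was 57.5, 69.5 and 55.3 in the PBRM1 lists and 62.4, 63.9 and 60.7 in the BRG1 lists. Averaged over the lists, 53 of 81 stood above rank 50, with a median of 62.4. The median was 47.2 for the cytosolic and 56.6 for the mitochondrial ribosomal protein genes.

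**Figure D2:**
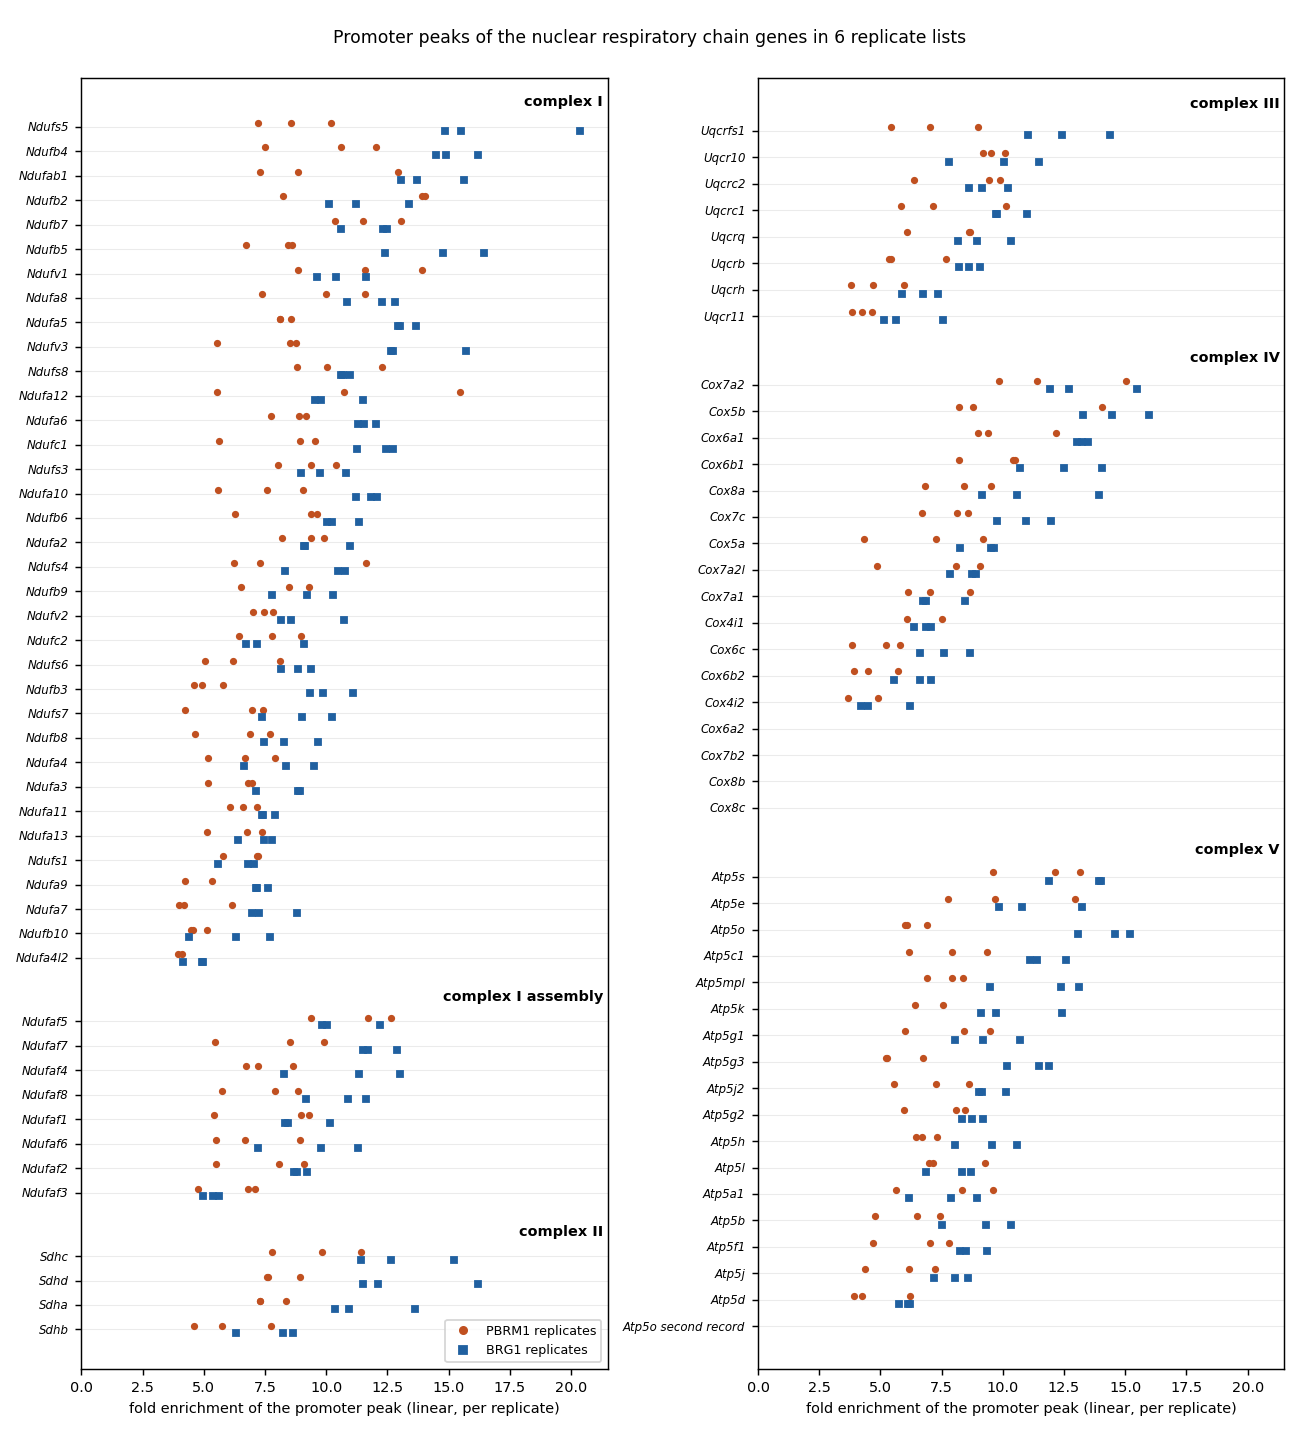
Fold enrichment of the promoter peak (linear scale, horizontal axis) of 90 of the 91 gene records, grouped by complex, with circles for the 3 PBRM1 and squares for the 3 BRG1 replicates. A list without a promoter peak has no mark, as in the rows of *Cox6a2*, *Cox7b2*, *Cox8b*, *Cox8c* and the second *Atp5o* record, and *Ndufs5* reaches the highest value, 20.4 in BRG1 replicate 2.

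*Cox7a2*, the common isoform of a small complex IV subunit, had the highest mean log2 fold enrichment of all. Its values were 15.0, 11.4 and 9.83 in the PBRM1 replicates and 15.5, 11.9 and 12.7 in the BRG1 replicates, and its mean rank was 93.9. The pooled summits of both antibodies fell on the same base, 51 bp into the gene, inside peaks at chr9:79759357-79760139 (PBRM1) and chr9:79759416-79760079 (BRG1). Its promoter, printed above, has none of the capitalized sites.

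*Atp5s*, which encodes coupling factor B of the ATP synthase, came next. PBRM1 gave 13.1, 12.1 and 9.58 and BRG1 14.0, 13.9 and 11.9, with a mean rank of 93.9. Its pooled summits lay 121 bp (PBRM1) and 43 bp (BRG1) into the gene.

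*Ndufb4*, an accessory subunit of the membrane arm, had the highest mean log2 fold enrichment of complex I. Its values were 10.6, 12.0 and 7.50 for PBRM1 and 14.5, 14.9 and 16.2 for BRG1. All BRG1 replicates lay above all PBRM1 replicates on this scale, which is not common to the lists. The next were *Cox5b*, *Ndufs5*, *Ndufb7*, *Ndufb2*, *Cox6a1*, *Ndufab1* (the mitochondrial acyl carrier protein) and *Sdhc*, with mean ranks of 87.2 to 91.4. The 10 highest thus comprised 5 complex I, 3 complex IV, 1 complex II and 1 complex V gene. The spread between replicates was as large as the distance between neighbours in this order. The mean over the PBRM1 replicates was 12.1 ± 2.66 for *Cox7a2*, 11.6 ± 1.83 for *Atp5s* and 10.1 ± 2.32 for *Ndufb4* (SD, n = 3).

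The lowest of the genes with peaks in all 6 lists was *Uqcr11*, a small subunit of complex III. It had 4.23, 4.67 and 3.85 in the PBRM1 and 7.54, 5.15 and 5.63 in the BRG1 replicates, with a mean rank of 10.1. *Ndufb10* (complex I), *Atp5d* (the delta subunit of the ATP synthase), *Cox6b2* (a testis isoform) and *Uqcrh* (the hinge protein of complex III) followed, with mean ranks of 11.6 to 14.8. Complex III therefore had its highest promoter, *Uqcr10*, at a mean rank of 71.8 and the lowest of all at the other end.

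All 4 complex II genes had peaks in every list. *Sdhc*, a membrane anchor, had 9.84, 11.4 and 7.79 in the PBRM1 and 12.6, 11.4 and 15.2 in the BRG1 replicates. *Sdhd*, the other anchor, had 7.60, 7.58 and 8.93 and then 12.1, 11.5 and 16.2. The flavoprotein gene *Sdha* had 7.29, 8.36 and 7.28 for PBRM1 and 10.4, 13.6 and 10.9 for BRG1. The iron-sulfur subunit gene *Sdhb* was the lowest of the 4, with 7.75, 5.74 and 4.58 and then 8.64, 6.30 and 8.25. Its mean rank was 31.8, against 70.9 to 87.3 for the other 3. In complex II the median rank was 74.0. It was 70.2 in complex I, 69.5 in complex IV, 60.3 in both complex III and the assembly factors, and 53.1 in complex V. Each complex spanned a wide range, for example 13.3 to 92.2 in complex I and 11.6 to 93.9 in complex V.

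The isoforms restricted to particular tissues differed in support from their common counterparts. Of the 8 tissue-restricted genes, 2 had peaks in all 6 lists (*Cox6b2* and *Cox7a1*), whereas 5 of 6 common counterparts did. The X-linked *Cox7b*, the counterpart of *Cox7b2*, is not among these 6 and lacked a peak in PBRM1 replicate 1. The muscle gene *Cox6a2* had no peak in any replicate, and the pooled PBRM1 list alone gave a fold enrichment of 3.07, 677 bp into the gene. *Cox6a1*, its common counterpart, had 12.2, 8.99 and 9.38 for PBRM1 and 13.1, 13.2 and 13.5 for BRG1. *Cox8b*, the muscle form of the last subunit, had no replicate peak, and the pooled BRG1 list alone gave 3.24, at a summit 1888 bp upstream. *Cox8a*, the common form, had 8.42, 9.53 and 6.83 for PBRM1 and 13.9, 9.16 and 10.6 for BRG1. The testis genes *Cox7b2* and *Cox8c* had no promoter peak in any of the 8 lists.

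The exceptions lay on both sides. The muscle isoform *Cox7a1* had 8.64, 7.04 and 6.12 for PBRM1 and 6.74, 8.45 and 6.85 for BRG1, below each of the corresponding values of *Cox7a2*. *Cox6b2*, a testis isoform, had 4.51, 5.70 and 3.92 and then 5.55, 6.63 and 7.08, also below its counterpart *Cox6b1* in every list (8.22 to 10.5 for PBRM1, 10.7 to 14.0 for BRG1). *Cox4i2*, the isoform of lung and hypoxic cells, had PBRM1 peaks of 4.88 and 3.67 in replicates 1 and 3. Its BRG1 values were 6.20, 4.48 and 4.22. The 4.48 of BRG1 replicate 2 came from a different peak, with its summit 2707 bp downstream of the reference TSS. In the other lists with a peak the summit lay upstream of that TSS. *Cox4i1*, the common form, lacked a peak in PBRM1 replicate 3 and had 7.53 and 6.09 in the others, with 6.38, 7.05 and 6.88 for BRG1. *Ndufa4l2*, a hypoxia-induced relative of *Ndufa4*, had weak peaks (3.95 to 4.95) in all lists but PBRM1 replicate 3, and their pooled summits lay 1947 and 1963 bp upstream of the reference TSS. Within 500 bp of a TSS, 85 genes in place of 87 had a peak in each pooled list, against 67.1% (PBRM1) and 70.5% (BRG1) of all genes.

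**Figure D3:**
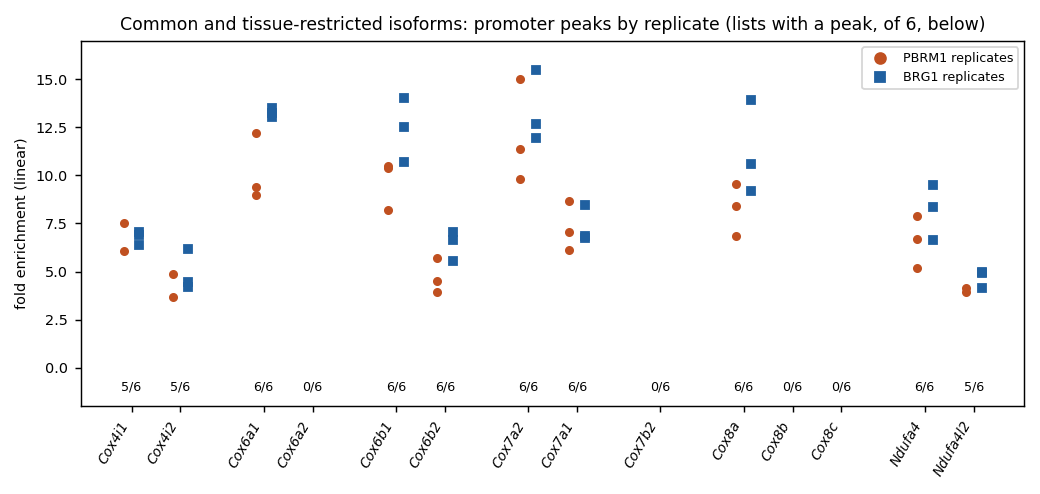
Fold enrichment by replicate (linear scale) of common complex IV subunits and *Ndufa4* beside their tissue-restricted isoforms, with circles for PBRM1, squares for BRG1 and, below, the number of the 6 replicate lists with a promoter peak. *Cox6a2*, *Cox7b2*, *Cox8b* and *Cox8c* have no marks, and the common counterpart of *Cox7b2* is X-linked and not plotted.

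The remaining genes with fewer than 6 peaks also lacked one PBRM1 replicate each. *Ndufa9*, an accessory subunit of complex I, had no peak in PBRM1 replicate 1 and 5.34 and 4.24 in replicates 2 and 3, with BRG1 values of 7.64, 7.14 and 7.16. *Atp5k*, subunit e of the ATP synthase, also lacked replicate 1, with PBRM1 values of 6.43 and 7.54 and BRG1 values of 9.10, 9.72 and 12.4. In all 5 genes with 1 to 5 peaks the missing list was a PBRM1 list. Over all genes, 11199 had peaks in the 3 PBRM1 lists, and 11134 of these in all 6. Nearly all of the 3839 genes with 1 to 5 peaks therefore also lacked a PBRM1 list. Peaks in the 3 BRG1 lists occurred at 13096 of all genes. The PBRM1 lists held fewer peaks in all than the BRG1 lists, and the part of that difference in the missing peaks was not tested.

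The antibodies were compared with limma on log2 fold enrichment, quantile-normalized over the 6 lists because their scales differ. Of 11134 promoters, 354 differed at an adjusted p under 0.05 (3.18%), 148 with relatively more PBRM1 (1.33%) and 206 with relatively less (1.85%). Of the 81 respiratory chain promoters, 4 differed, each with relatively less PBRM1, and 0 had relatively more. At an unadjusted p under 0.05 the counts were 13 and 9, or 22 of 81, near the 21.2% of all promoters. The 4 were 2 genes of complex I and 2 of complex V. With the peak nearest to a TSS in place of the strongest, or without PBRM1 replicate 2, BRG1 replicate 2 or BRG1 replicate 3, limma called 0 of them, with 13 to 20 at an unadjusted p under 0.05. In these settings it called 30, 4, 27 and 4 of all promoters, and 15.1% to 18.9% had an unadjusted p under 0.05. The count was 2 without PBRM1 replicate 1 (1.43% of all promoters) and 1 without BRG1 replicate 1 (0.341%). Without scaling it was 20 of 81, near the 20.5% of all promoters. Median centring gave 5 (4.26% of all promoters) and turned the split of all called promoters to 261 with relatively more PBRM1 and 213 with less, and without scaling it was 3 and 2274.

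*Atp5o*, the stalk subunit OSCP that ties the head of the ATP synthase to its stator, had the largest difference. Its deposited fold enrichments were 6.01, 6.89 and 6.09 for PBRM1 and 13.1, 14.6 and 15.2 for BRG1. The normalized difference was −0.85 on the log2 scale (SE 0.149, limma adjusted p = 0.0134), and no PBRM1 value reached a BRG1 value on either scale. Its pooled peaks were at chr16:91931161-91931893 (PBRM1) and chr16:91931229-91931875 (BRG1), over the start of the main record.

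*Ndufb3* and *Ndufs5*, both accessory subunits of complex I, followed. *Ndufb3* had 5.80, 4.92 and 4.61 for PBRM1 and 9.32, 11.1 and 9.86 for BRG1, a difference of −0.65 (SE 0.136, limma adjusted p = 0.0282). Its start lies 61 bp from that of *Fam126b*, and the pooled BRG1 summit was 56 bp from the reference TSS of *Fam126b* and 117 bp from the nearest one of *Ndufb3*. *Ndufs5* had 10.2, 8.56 and 7.22 for PBRM1 and 15.5, 20.4 and 14.9 for BRG1, a difference of −0.67 (SE 0.150, limma adjusted p = 0.0293). Its BRG1 value in the pooled list, 20.6, was the highest of the respiratory chain genes.

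*Atp5g3*, 1 of 3 genes for subunit c of the proton-conducting ring, had 5.27, 6.75 and 5.22 for PBRM1 and 10.2, 11.9 and 11.5 for BRG1. The difference was −0.63 (SE 0.153, limma adjusted p = 0.0377). The other subunit c genes encode the same mature protein. *Atp5g1* had 6.01 to 9.47 for PBRM1 and 8.05 to 10.7 for BRG1, and *Atp5g2* had 5.98 to 8.45 and 8.32 to 9.19. The antibodies overlapped at both *Atp5g1* and *Atp5g2* on the deposited scale, whereas at *Atp5g3* they did not. A difference between the subunit c genes was not tested.

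In the other direction the nearest to a call was *Ndufaf3*, an assembly factor. It had 7.09, 6.79 and 4.75 for PBRM1 and 4.95, 5.62 and 5.39 for BRG1, with a difference of 0.50 (SE 0.135, limma adjusted p = 0.0535). Over all 81 promoters the median difference was −0.08, and 47 were negative, compared with 48.8% of all promoters tested. All 4 complex II promoters had negative differences (−0.38 to −0.05), none of which passed the test. PBRM1 replicates lay wholly below BRG1 replicates at 11 of 81 promoters, against 11.8% of all promoters, and wholly above at 10, against 14.0%.

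**Figure D4:**
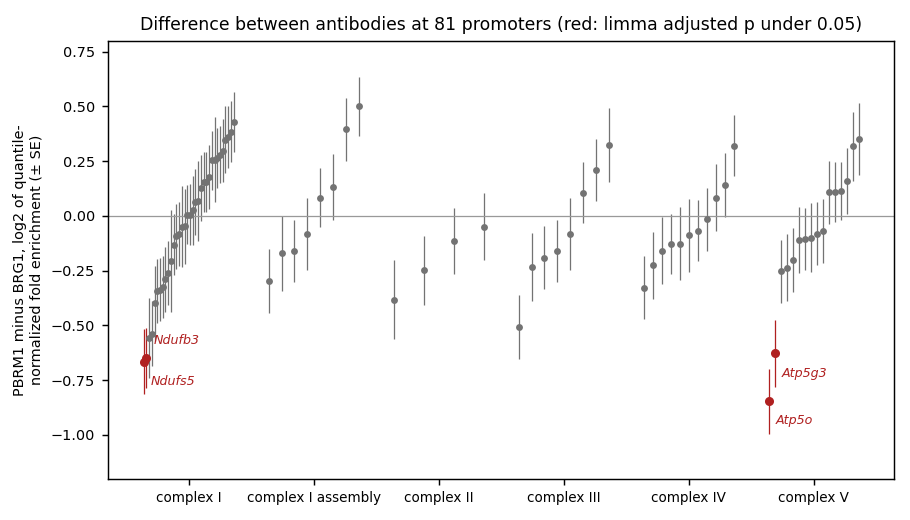
Difference between PBRM1 and BRG1 at the 81 promoters with peaks in all 6 lists, as log2 of quantile-normalized fold enrichment with its SE (vertical axis), by complex. The 4 promoters with a limma adjusted p under 0.05 are drawn in red, between −0.85 and −0.63, and the other 77 in grey.

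The peaks sat at the start of the genes. The pooled peak covered the reference TSS at 79 of 87 genes for PBRM1 (90.8%) and 80 of 87 for BRG1 (92.0%), compared with 69.5% and 71.2% of all genes with a promoter peak. The pooled peaks had a median length of 791 and 871 bp, against 776 and 791 bp for all genes. The summits of the antibodies differed in place. The median PBRM1 summit lay 117, 111 and 77 bp into the gene in replicates 1, 2 and 3, whereas the BRG1 summits centred on the TSS, at −0.5, 19.5 and 2.5 bp. For all genes the PBRM1 medians were 68, 67 and 17 bp and the BRG1 medians −7, −4 and −11 bp.

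At 20 of 81 respiratory chain promoters the summits of all 3 PBRM1 replicates lay downstream of all 3 BRG1 summits (24.7%), against 14.7% of all promoters. The reverse order occurred at 5, against 9.05%. At *Uqcrc1*, a core subunit of complex III, the PBRM1 summits were 211, 162 and 166 bp and the BRG1 summits 31, 33 and 31 bp into the gene. At *Uqcrc2*, the other core subunit, they were 204, 164 and 186 bp and then 30, 8 and 27 bp. At *Sdhc* they were 147, 113 and 139 bp for PBRM1, whereas BRG1 summits lay 36, 14 and 26 bp upstream. These 3 examples were chosen after their values were seen. The replicates of BRG1 placed the summit within a median span of 26 bp, and those of PBRM1 within 127 bp. The fragment length that the lists record was 177 to 188 bp for PBRM1 and 149 to 154 bp for BRG1, and its part in the shift of the summits was not tested.

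**Figure D5:**
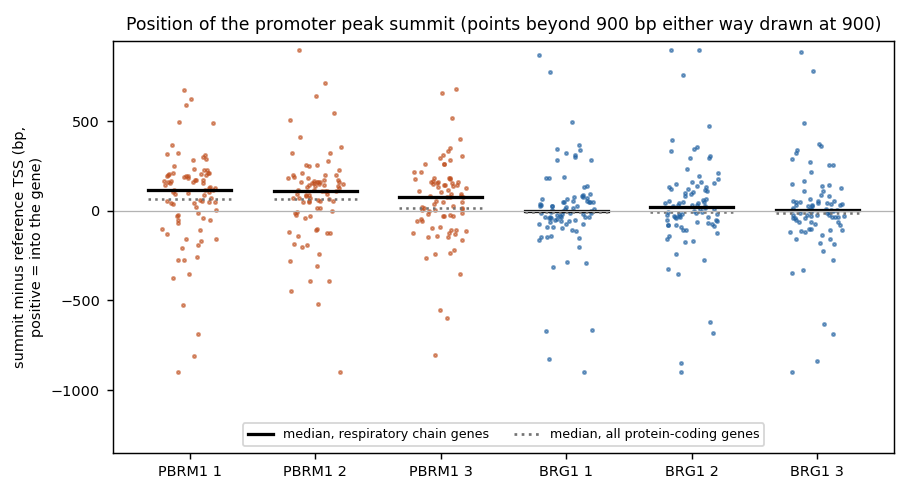
Distance of the promoter peak summit from the reference TSS (bp, positive into the gene, points beyond 900 bp drawn at 900) in each replicate list, with a point for each respiratory chain gene. Solid lines mark their median and dotted lines that of all protein-coding genes, and the solid lines of the PBRM1 lists lie at 77 to 117 bp.

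The promoter sequences had features that the choice of genes did not use. Over the 300 bases around the reference TSS the ratio of observed to expected CpG had a median of 0.807, against 0.573 for all 20722 promoters and 0.774 for those with peaks in all 6 lists. Promoters without a peak in any replicate had a median of 0.151. The muscle genes *Cox6a2* and *Cox8b*, printed above, had ratios of 0.140 and 0.115, whereas their counterparts *Cox6a1* and *Cox8a* had 1.03 and 0.842. The second *Atp5o* record had 0.0705. The testis genes without peaks were higher, with 0.564 for *Cox7b2* and 0.460 for *Cox8c*. *Cox7a1* carried peaks in all 6 lists at a ratio of 0.304. The GC content was 56.0% in the median, against 56.3% for all promoters and 61.3% for those with peaks in all 6 lists.

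An NRF1 site (GCGCATGCG, on either strand, with overlapping matches of its 2 orientations counted as 1 promoter) occurred in 8 of 91 promoters, 8.79% against 2.23% of all promoters. They were *Atp5g2*, *Atp5k*, *Atp5l*, *Cox6a1*, *Ndufa11*, *Ndufaf4*, *Ndufaf5* and *Uqcr11*. A YY1 site (AAGATGGCG) occurred in 6, 6.59% against 1.86%, and 5 of these matches began 10 to 34 bases into the gene, for example in *Ndufa2* and *Ndufa9*. An ETS site (CCGGAAGT) occurred in 6, 6.59% against 5.13%, among them both matches in *Cox8a*. The ETS share was below the 8.46% of promoters with peaks in all 6 lists, the 13.0% of cytosolic and the 16.7% of mitochondrial ribosomal protein genes, with no test. The NRF1 and YY1 shares in promoters with peaks in all 6 lists were 3.67% and 3.05%. At least 1 of the 3 was found in 18 promoters, 19.8% against 8.73%. Of promoters with peaks in all 6 lists 14.3% had one, and of mitochondrial ribosomal protein genes 32.1%.

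The sites occurred at both high and low fold enrichments. *Cox6a1* and *Ndufaf5*, with mean ranks of 90.7 and 83.3, had an NRF1 site, as did *Uqcr11*, the lowest of the 81, which also had an ETS site. *Cox7a2* and *Atp5s* had none of the 3. The median rank was 53.1 for the 7 ranked promoters with an NRF1 site and 63.0 for the 74 without, whereas over all promoters with peaks in all 6 lists it was 63.3 with the site and 49.6 without. For an ETS site it was 41.9 with (6 promoters) and 64.2 without, against 56.3 and 49.4 over all. For a YY1 site it was 52.3 with (5 promoters) and 63.0 without, against 56.96 and 50.01 over all. The groups with a site are small, and the differences were not tested. The TATA-box string (TATAAA), searched at any position and on either strand, occurred in 11 promoters, 12.1% against 12.7%. Among them were 3 of the 5 without a replicate peak (*Cox7b2*, *Cox8b* and the second *Atp5o* record). The match in *Cox8b* lay downstream of the reference TSS, and those in *Cox7b2* and the second *Atp5o* record were on the opposite strand. Whether any match acts as a TATA box was not tested. The GC box (GGGCGGG, for SP factors) occurred in 29.7%, against 34.1% of all promoters and 49.2% of those with peaks in all 6 lists. It occurred in 42.4% of cytosolic and 42.3% of mitochondrial ribosomal protein genes. The CCAAT box occurred in 36.3%, against 38.2% of all promoters and 38.7% of those with peaks in all 6 lists. The other motifs searched were TGACGTCA (CREB) and TCGCGAGA. The CREB motif occurred in 4 of 91, against 2.48% of all promoters and 3.62% of those with peaks in all 6 lists. TCGCGAGA occurred in 2 of 91, against 1.34% and 2.28%. In cytosolic and mitochondrial ribosomal protein genes the shares were 5.43% and 2.56% for CREB, and 15.2% and 2.56% for TCGCGAGA, with no test.

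Respiratory chain genes often shared their promoter with a neighbour. A protein-coding gene began on the opposite strand within 1000 bp upstream (or with up to 200 bp of overlap) for 23 of 91, 25.3% against 7.93% of all genes and 14.0% of those with peaks in all 6 lists. The count rests on the reference TSS of each gene. It leaves out, for example, *Atp5j*, which shares its peaks with *Gabpa*. The nearest pairs were *Ndufs1* with *Eef1b2* at 3 bp, *Ndufa7* with *Rps28* at 10 bp, *Ndufb9* with *Tatdn1* at 26 bp and *Sdha* with *Ccdc127* at 29 bp. Partners with mitochondrial products were *Mrpl47* at 157 bp from *Ndufb5* and *Timm8b* at 98 bp from *Sdhd*. The 22 ranked genes with a partner had a median rank of 71.6, and the 59 without one 56.3. The difference was not tested, and the same medians were not taken over all promoters. At 9 genes the pooled BRG1 summit was nearer to the reference TSS of another gene than to any TSS of its own, for example 2 bp from *Timm8b* and 100 bp from *Sdhd*. In such pairs a peak cannot be assigned to one gene.

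Most genes of the wider pathway were marked as well. Of 40 assembly factors and subunits outside the symbol rule, 39 had promoter peaks in all 6 lists, against 81 of the 91 respiratory chain genes and 53.5% of all genes, and a difference between the lists was not tested. They had median pooled fold enrichments of 8.61 for PBRM1 and 11.4 for BRG1. All 17 complex IV assembly factors, 7 of complex I, 4 of complex II and 3 of complex V did, as did all 7 genes listed with complex III. Among them *Cyc1*, the cytochrome c1 gene, had 5.55 to 6.99 for PBRM1 and 9.02 to 9.69 for BRG1. *Cycs*, the somatic cytochrome c, had 13.6, 10.3 and 9.23 for PBRM1 and 11.4, 12.4 and 13.0 for BRG1. The exception of the 40 was *Cyct*, the testis cytochrome c, with no promoter peak in any of the 8 lists. Of the 3 X-linked subunit genes, *Ndufa1* and *Ndufb11* had 6 peaks each, and *Cox7b* lacked PBRM1 replicate 1 and had values of 3.20 to 4.21 in the others.

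Of 9 genes of regulators of this pathway, 7 had promoter peaks in all 6 lists, against 53.5% of all genes. *Ppargc1a*, the inducible coactivator PGC-1α, had no PBRM1 peak in any replicate and BRG1 peaks of 5.38, 6.65 and 5.08. The pooled PBRM1 list gave it 3.52. Its relative *Ppargc1b* lacked PBRM1 replicate 3. *Tfam*, the packaging and transcription factor of mitochondrial DNA, had 10.97, 7.01 and 7.83 for PBRM1 and 11.5, 10.6 and 10.8 for BRG1. *Nrf1* had 7.40, 7.72 and 4.58 and then 7.79, 8.87 and 8.71. *Gabpa* and *Atp5j*, the coupling factor 6 subunit, had the same values in every list (6.17, 7.24 and 4.39 for PBRM1, 8.03, 8.56 and 7.18 for BRG1), because their starts share the peaks at chr16:84834461-84835627 (PBRM1) and chr16:84834438-84835683 (BRG1).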

How the data were processed

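PBRM1 and BRG1 ChIC-Seq of D4 uterine stromal cells was read from 8 deposited peak lists, 1 per replicate and 1 per antibody on pooled fragments. The authors trimmed the reads, mapped the pairs with Bowtie2 (mm10), discarded duplicates and poorly mapped pairs, and ran MACS 2.2.7.1 on what was left. Per the file headers the q-value cutoff was 0.05, the regional background 10000 bp, and no control file was named, so that a peak stands against its own library's local background. The deposited lists give the pileup signal, the −log10 q-value and the fold enrichment (a linear ratio) of each peak. They are not on a common scale.

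Peaks were assigned to genes of the mouse GENCODE release M21 within 2000 bp of a TSS, with a minimum overlap of 1 bp. This step ran in Python 3.11.15 with numpy 2.4.6 and pandas 2.3.3. The reference TSS was that of the principal protein-coding transcript, and single distances depend on it. Promoter sequences came from the GRCm38 assembly. Differences between antibodies were tested with limma 3.58.1 in R 4.3.3 on log2 fold enrichment over promoters with a peak in all 6 replicate lists, after quantile normalization, with Benjamini-Hochberg adjustment over all 11134 promoters. The peak assignment and the limma step were tested on simulated data. Shares of genes were set beside the same share of all genes, with no test. The genes named were those without full replicate support, the 10 highest and 5 lowest, complex II, the isoform pairs, those called by limma and, of the wider pathway, the genes without a peak and 7 chosen ones. The alternatives were other promoter distances, 1 TSS per gene, thresholds of 5 on −log10 q or fold enrichment, summits inside the window, other scalings, another peak choice, a replicate block and each replicate left out. 1 gene is counted but not reported here by name, and the plot of single genes leaves it out. The genes and lists were chosen with earlier results of these data known.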

Additional observations from a re-analysis of the deposited data

How the results depend on the processing

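The counts of respiratory chain genes with a promoter peak kept within 1.5 times of the reported value under every alternative run. The number with peaks in all 6 replicate lists was 64 with a fold enrichment of at least 5, at most 83 under the other settings, and 81 to 83 with 1 replicate left out. The pooled PBRM1 count was 78 to 88 and the pooled BRG1 count 85 to 88 under the other settings, and they were 82 to 83 and 85 to 86 when pooled peaks were limited to those seen in the remaining replicates. The count of promoters that differed between the antibodies was less firm. It was 4 with the strongest peak and quantile normalization, 20 without scaling, where 20.5% of all promoters were called and their median difference was −0.32 on the log2 scale, and 0 with the peak nearest to a TSS. With 1 replicate left out it was 0 to 6. It was 2 without PBRM1 replicate 1, 0 without PBRM1 replicate 2, 1 without BRG1 replicate 1, and 0 without BRG1 replicate 2 or 3, and the causes were not tested. Median centring gave 5, of which 1 had relatively more PBRM1. At an unadjusted p under 0.05 the promoters numbered 22 as reported (21.2% of all promoters) and 13 to 20 without 1 replicate (15.1% to 21.7% of all), near the share of all promoters. The differences of *Atp5o*, *Ndufb3*, *Ndufs5* and *Atp5g3* were negative under all 12 alternatives, with adjusted p-values up to 0.0743, 0.0981, 0.123 and 0.141. The replicate numbers did not pair the libraries (correlations of same-numbered deviations −0.0192 to 0.00396 over promoters), and a replicate block gave 4 respiratory chain promoters and 442 of all. Fold enrichments carry no depth of their own, and a missing peak in a replicate says that none passed the q-value cutoff at that depth.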
